A study of Mus musculus with 12 samples.

Results

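Mmp10, Neurl3 and Hsf2bp are 3 mouse genes that were picked from the 15018 genes tested here, of 45321 with a matched transcript, because their RNA was higher in CD4+ T cells given both cyclosporin A (CsA) and a stimulus than in cells given only one of them. The choice used the measured levels in 2 libraries of the doubly treated group, so the 2 comparisons that define it are given as descriptions and without a test. All 3 genes were among the 15018 tested here, which passed the filter on low counts, of 45321 with a matched transcript. The libraries came from CD4+ T cells of C57BL/6 mouse spleen, isolated untouched. In the CsA_PI group, cells had 1 µM CsA for 1 h and then 10 nM of the phorbol ester PMA with 1 µM ionomycin for 2 h. In the ethanol_PI group, ethanol, the solvent of CsA, took the place of the drug before the same stimulus. The CsA_US group had CsA and no stimulus, and the ethanol_US group had ethanol and no stimulus. Each group had 3 libraries, made by SMART-seq, which copies polyadenylated RNA into cDNA, amplifies it and does not keep the strand. The study set CsA against its vehicle, as a point of comparison for an inhibitor of the NFAT:AP-1 complex.

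PMA switches on protein kinase C and ionomycin lets calcium into the cell, which together mimic signalling by the T cell receptor. Calcium activates the phosphatase calcineurin, and calcineurin sends NFAT transcription factors to the nucleus, where they often bind DNA beside AP-1, the Fos and Jun dimers that protein kinase C signalling raises. CsA blocks calcineurin, so a gene with more RNA when CsA and the stimulus are combined behaves unlike the cytokine genes for which the drug is known. Mmp10 encodes stromelysin-2, a secreted metalloproteinase that cuts matrix proteins and activates other pro-enzymes of its family. Neurl3 encodes a RING-type ubiquitin ligase of the Neuralized family, whose founding member in Drosophila ubiquitinates the Notch ligand Delta. Hsf2bp, named as a binding partner of heat shock factor 2, is known from mouse germ cells, where it brings Brca2 to recombination sites.

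The genes lie on different chromosomes of mm10. Mmp10 (ENSMUSG00000047562.3) lies on chromosome 9 from 7502352 to 7510240 on the forward strand, with 10 exons in its single transcript. Neurl3 (ENSMUSG00000047180.8) lies on chromosome 1 from 36264597 to 36274679 on the reverse strand, with 2 transcripts in the deposited tables. Hsf2bp (ENSMUSG00000002076.12) lies on chromosome 17 from 31944769 to 32036349 on the reverse strand, with 3 transcripts in the tables. The 250 bases before each RefSeq start are printed below because the stimulus and the drug act on factors that bind such sequences, with capitals marking matches to the motifs searched. They are given 5′ to 3′ on the strand of the gene, on GRCm38.p6, at chr9:7502092-7502341 on the forward strand for Mmp10, at chr1:36273426-36273675 on the reverse strand for Neurl3 and at chr17:32034509-32034758 on the reverse strand for Hsf2bp.
Mmp10: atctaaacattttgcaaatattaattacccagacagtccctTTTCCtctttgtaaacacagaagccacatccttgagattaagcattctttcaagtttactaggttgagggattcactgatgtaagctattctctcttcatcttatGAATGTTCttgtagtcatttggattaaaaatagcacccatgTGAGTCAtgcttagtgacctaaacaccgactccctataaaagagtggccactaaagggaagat
Neurl3: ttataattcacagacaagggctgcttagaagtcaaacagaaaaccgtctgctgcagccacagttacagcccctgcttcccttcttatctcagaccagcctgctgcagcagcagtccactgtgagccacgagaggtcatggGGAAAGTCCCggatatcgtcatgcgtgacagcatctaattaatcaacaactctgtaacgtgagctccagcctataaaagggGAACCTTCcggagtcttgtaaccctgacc
Hsf2bp: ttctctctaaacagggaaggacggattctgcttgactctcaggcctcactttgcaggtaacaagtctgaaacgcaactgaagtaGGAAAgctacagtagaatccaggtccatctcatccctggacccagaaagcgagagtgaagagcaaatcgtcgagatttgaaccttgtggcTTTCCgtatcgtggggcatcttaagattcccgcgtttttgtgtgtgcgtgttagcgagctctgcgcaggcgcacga

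The letters of an AP-1 site, TGANTCA, stood in the Mmp10 window from -63 to -57 relative to the start, and 6.75% of the 32851 promoter windows of the same length in the table held them. Neither of the other windows had these letters. A core of NFAT sites, GGAAA on either strand, stood in all 3 windows, and 55.6% of all windows held one. In Neurl3 the core from -110 to -106 overlapped an NF-kB motif read on the opposite strand from -110 to -101, which 1.41% of windows held. In Mmp10 the core stood from -209 to -205, and Hsf2bp had a core from -166 to -162 and another from -76 to -72. The composite NFAT:AP-1 motif, in which the GGAAA core stands a few bases before the AP-1 letters, was in none of the 3 windows and in 0.0213% of all. A pair of inverted heat shock units, GAANNTTC, stood in Mmp10 from -104 to -97 and in Neurl3 from -29 to -22, against 6.69% of all windows, and not in the window of Hsf2bp, the gene named after a heat shock factor. No match was found for the CRE letters TGACGTCA, the E-box CACGTG or the STAT letters TTCNNNGAA, which 1.55%, 6.02% and 7.02% of windows held. All motifs were searched on both strands, and a match describes letters, not binding.

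The libraries held 10523816 to 18468044 estimated counts, so that a count of 0 allowed up to 0.162 to 0.285 CPM (counts scaled to library size). Il2, the T cell growth factor that CsA is known to block, was at 25.3 and 23.2 CPM in CsA_PI replicates 1 and 3, against 2060, 1815 and 1749 CPM in ethanol_PI. CsA_PI replicate 2 stood apart, with Il2 at 2.60 CPM. Over 2188 genes induced in vehicle, the mean log2(CPM + 1) was 4.27 in that library, against 5.04 and 5.06 in CsA_PI 1 and 3, 5.98 to 6.03 in ethanol_PI and 4.14 to 4.27 in the unstimulated libraries. It is therefore shown apart, and the fits use the other 11 libraries unless stated. All 5 T cell markers had counts in every group. Their summed level was 2837 to 3136 CPM in CsA_PI 1 and 3, 2303 CPM in CsA_PI 2, 3544 to 4684 CPM in ethanol_PI, 2349 to 2813 CPM in CsA_US and 2258 to 3062 CPM in ethanol_US. The 6 B cell markers had counts too, with a summed level of 2835 to 3699 CPM in CsA_PI 1 and 3, 4527 CPM in CsA_PI 2, 2607 to 3794 CPM in ethanol_PI, 2261 to 3904 CPM in CsA_US and 2395 to 4366 CPM in ethanol_US. The B cell sums were thus of similar size to the T cell sums, and larger in CsA_PI 2. The 8 myeloid and dendritic markers summed to 49.0 to 70.4 CPM in CsA_PI 1 and 3, 241 CPM in CsA_PI 2, 53.0 to 233 CPM in ethanol_PI, 42.7 to 225 CPM in CsA_US and 46.6 to 240 CPM in ethanol_US. The 6 stromal and endothelial markers summed to 86.8 to 104 CPM in CsA_PI 1 and 3, 193 CPM in CsA_PI 2, 141 to 169 CPM in ethanol_PI, 134 to 175 CPM in CsA_US and 153 to 199 CPM in ethanol_US. In bulk RNA, fewer cells of a type cannot be told apart from less RNA per cell, and the part of these cells in the results below was not tested. Nothing in the labels ties replicates to different animals, and a p-value here reflects only how much these libraries vary, a variation that may be technical.

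Mmp10 RNA was many times more abundant in the doubly treated cells than anywhere else. Its level was 201 and 454 TPM (abundance scaled for transcript length and depth) in CsA_PI 1 and 3, against 11.7, 12.9 and 17.9 TPM in ethanol_PI, 3.57, 6.45 and 5.59 TPM in CsA_US and 2.93, 6.94 and 5.52 TPM in ethanol_US. CsA_PI 1, the lower of the pair, was still 11.2 times the highest library of the other 3 groups. These values rest on 3700 and 5880 estimated counts in CsA_PI 1 and 3 and on 51 to 213 in the other groups. By TPM it was the 718th and the 361st most abundant of all genes in CsA_PI 1 and 3, and no higher than the 5032nd in ethanol_PI. CsA_PI 2 did not share the high level, with 7.62 TPM from 113 counts, below every ethanol_PI library and above every unstimulated one.

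Neurl3 was abundant at rest, scarce after the stimulus alone and most abundant when the stimulus came with CsA. It stood at 602 and 643 TPM in CsA_PI 1 and 3, against 40.5, 37.1 and 46.3 TPM in ethanol_PI. The unstimulated libraries lay between these groups, with 278, 315 and 318 TPM in CsA_US and 226, 329 and 228 TPM in ethanol_US. The lower CsA_PI library was 1.83 times the highest of the other 3 groups, so the excess over resting cells was small beside the excess over stimulated vehicle cells. In CsA_PI 2 it was at 346 TPM, just above every unstimulated library. By counts scaled with TMM, however, CsA_PI 2 had 499.7 CPM, below 1 CsA_US library at 514 CPM and above all ethanol_US libraries.

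Hsf2bp had few counts outside the doubly treated cells. It stood at 11.9 and 12.1 TPM in CsA_PI 1 and 3, against 0.726, 1.87 and 0.827 TPM in ethanol_PI, 0.222, 0.738 and 0.704 TPM in CsA_US and 1.59, 2.53 and 0.893 TPM in ethanol_US. The CsA_PI values came from 105 and 92.2 estimated counts, and the other 3 groups had 4 to 18 counts a library, so the low levels and the order among them carry large counting error. The lower CsA_PI library was 4.72 times the highest of those 3 groups. CsA_PI 2 had 2.79 TPM from 19 counts, the highest of the libraries outside CsA_PI 1 and 3 but close to 1 ethanol_US library. Over all genes tested, 9.29% had both CsA_PI 1 and 3 above every ethanol_PI and CsA_US library in CPM, as these 3 genes had by choice.

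**Figure D1:**
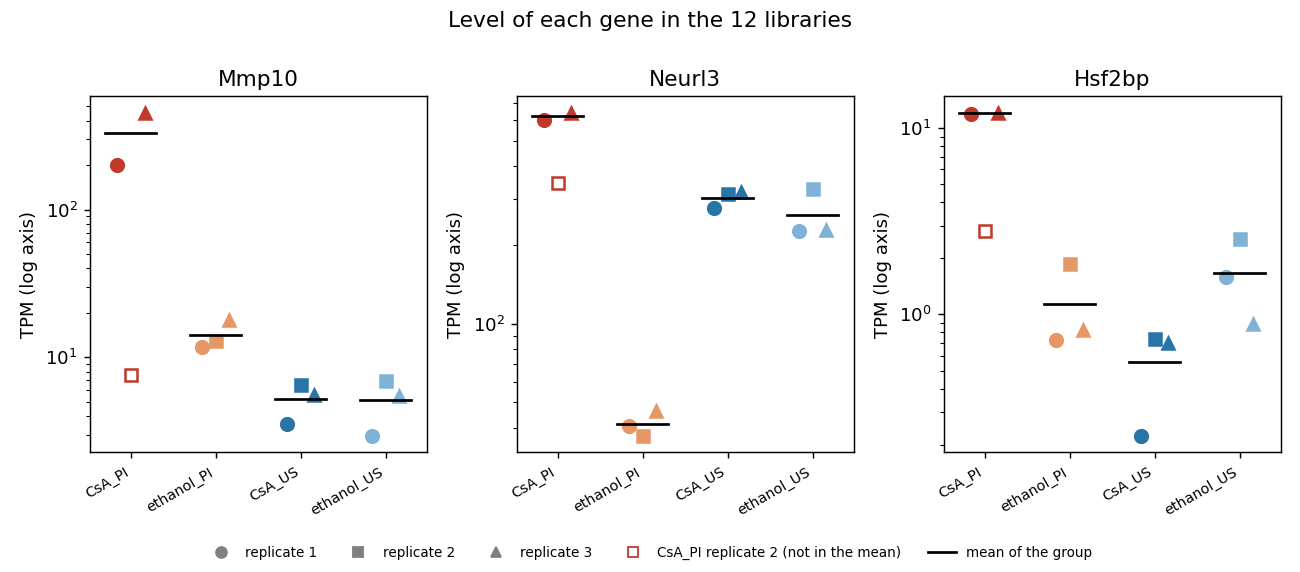
TPM of Mmp10, Neurl3 and Hsf2bp on log axes in the 12 libraries of CsA_PI, ethanol_PI, CsA_US and ethanol_US, with replicates by marker shape and bars for group means without CsA_PI replicate 2 (open square). CsA_PI 1 and 3 stand above all other libraries in each panel, while ethanol_PI is the lowest group for Neurl3 at 37.1 to 46.3 TPM.

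The size of the difference depended on which single treatment it was set against. The mean TPM of Mmp10 was 328 ± 179 in CsA_PI (SD, n = 2), against 14.2 ± 3.29 in ethanol_PI, 5.20 ± 1.48 in CsA_US and 5.13 ± 2.04 in ethanol_US (SD, n = 3 each), ratios of 23.1, 63.0 and 63.9. Neurl3 averaged 622 ± 28.7 TPM in CsA_PI (SD, n = 2), against 41.3 ± 4.66 in ethanol_PI, 304 ± 22.4 in CsA_US and 261 ± 58.8 in ethanol_US (SD, n = 3 each), ratios of 15.1, 2.05 and 2.39. Hsf2bp averaged 12.04 ± 0.127 TPM in CsA_PI (SD, n = 2), against 1.14 ± 0.631 in ethanol_PI, 0.555 ± 0.289 in CsA_US and 1.67 ± 0.822 in ethanol_US (SD, n = 3 each), ratios of 10.6, 21.7 and 7.20. Mmp10 therefore had the widest spread between its CsA_PI libraries. For Hsf2bp, ethanol_PI overlapped both unstimulated groups, and every CsA_US library was below every ethanol_US library in TPM, though not in CPM. That order rests on 6 to 18 counts a library and on their split among transcripts of different length. CsA_US 1 had 8.3 counts and 0.222 TPM, and ethanol_US 1 had 9 counts and 1.59 TPM. The share of all genes with such an order in TPM was not counted.

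In the edgeR fit, the log2 fold change of CsA_PI over ethanol_PI was 4.36 ± 0.41 (SE) for Mmp10, 3.74 ± 0.20 for Neurl3 and 3.43 ± 0.50 for Hsf2bp. That of CsA_PI over CsA_US was 6.27 ± 0.44 for Mmp10, 1.36 ± 0.19 for Neurl3 and 4.26 ± 0.50 for Hsf2bp. For the first comparison 9.66% of the genes tested were called higher (edgeR, adjusted p below 0.05) and for the second 14.9% (29.1% in either direction), and 374 genes, or 2.49%, were called higher in both. Ranked among those 374 by the smaller of their 2 log2 fold changes, Mmp10 was the 4th, Hsf2bp the 8th and Neurl3 the 90th. The set and the ranks use the same 2 comparisons that chose the 3 genes, so they describe size and test nothing. The smaller log2 fold change had a median of 0.95 over the 374 genes and ranged from 0.37 to 7.98. Neurl3 was thus near the top for the effect of CsA in stimulated cells, at rank 8, and in the middle, at rank 156, for the effect of the stimulus with CsA. With CsA_PI 2 kept in its group, CsA_PI over ethanol_PI was 3.78 for Mmp10, 3.42 for Neurl3 and 2.95 for Hsf2bp.

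**Figure D2:**
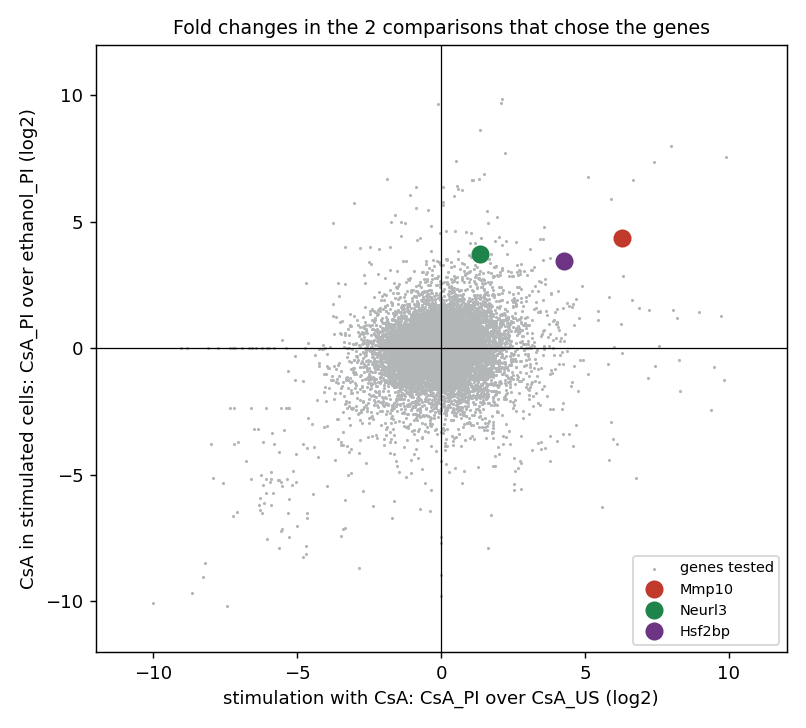
Log2 fold changes of 15017 genes in the 2 comparisons that chose Mmp10, Neurl3 and Hsf2bp: CsA_PI over CsA_US across, CsA_PI over ethanol_PI up the page, without CsA_PI replicate 2 (1 gene lies outside the axes). The 3 genes lie at the upper right, with Neurl3 at 1.36 across and 3.74 up, nearer the vertical axis than Hsf2bp and Mmp10.

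The response to the stimulus alone, which the choice of genes did not use directly, separated the 3 genes. It still shares the ethanol_PI libraries, in which they were picked as low. In vehicle, stimulation raised Mmp10, with 18.8, 18.5 and 26.1 CPM in ethanol_PI against 2.87, 7.22 and 5.53 CPM in ethanol_US (log2 fold change 2.02 ± 0.38, SE; edgeR adjusted p = 0.00149). The groups did not overlap, as in 27.1% of all genes tested, and 22.2% were called higher. That call was lost when CsA_PI 2 was kept in the shared fit (2.03, edgeR adjusted p = 0.145). Neurl3 fell with stimulation in vehicle, with 93.2, 78.9 and 99.3 CPM in ethanol_PI against 306, 478 and 330 CPM in ethanol_US (-2.04 ± 0.18, SE; edgeR adjusted p = 1.36e-06). All ethanol_PI libraries were below all ethanol_US libraries, as in 26.9% of genes, and 21.9% were called lower. Hsf2bp had 0.591, 1.26 and 0.490 CPM in ethanol_PI against 0.507, 1.06 and 0.699 CPM in ethanol_US, overlapping groups with no call (0.07 ± 0.47, SE; edgeR adjusted p = 0.926). The word superinduced therefore describes Mmp10, which the stimulus raised without the drug, and not Neurl3, which the stimulus lowered, and for Hsf2bp no rise was detectable at 4 to 18 counts a library.

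CsA alone gave no call for any of the 3 genes in resting cells, a comparison that shares the CsA_US libraries with the choice. Mmp10 had 3.73, 7.39 and 5.84 CPM in CsA_US against 2.87, 7.22 and 5.53 CPM in ethanol_US (log2 fold change 0.11 ± 0.39, SE; edgeR adjusted p = 0.996). Its sign turned to -0.19 without ethanol_US replicate 1 and to -0.12 without CsA_US replicate 2. Neurl3 had 411, 514 and 485 CPM in CsA_US against 306, 478 and 330 CPM in ethanol_US (0.34 ± 0.18; edgeR adjusted p = 0.829). Hsf2bp had 0.378, 0.369 and 0.599 CPM in CsA_US against 0.507, 1.06 and 0.699 CPM in ethanol_US (-0.76 ± 0.47; edgeR adjusted p = 0.861). The groups overlapped in CPM for all 3 genes, and 0.0599% of all genes tested, 9 genes, were called in either direction. The stimulation effect with CsA minus that in vehicle, which follows from the choice, was 4.25 for Mmp10, 3.40 for Neurl3 and 4.19 for Hsf2bp on the log2 scale, where 5.03% of genes were called higher and 12.9% in either direction.

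These fold changes depend on how libraries are scaled. With library totals in place of TMM, the median gene shifted by -0.60 in the vehicle comparison, by 0.21 for CsA in stimulated cells and by -0.37 for stimulation with CsA on the log2 scale. Genes called higher made up 50.3% of the calls for stimulation in vehicle under TMM and 23.1% with library totals. The share was 42.7% and 61.9% for CsA in stimulated cells, 51.3% and 24.7% for stimulation with CsA, and 39.0% and 60.5% for the difference of stimulation effects. A change of scaling shifts nearly all genes by a similar amount, so a value relative to the median gene hardly moves for any gene, by construction. Relative to the median gene, in vehicle Mmp10 was at 2.05 with TMM and 2.06 with library totals, Neurl3 at -2.006 and -2.003, and Hsf2bp at 0.10 and 0.12.

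The transcripts of each gene showed the same pattern where counts allowed. Neurl3-201 carried 92.4% and 92.8% of the gene's counts in CsA_PI 1 and 3, against 92.9% to 95.3% in ethanol_PI, 91.6% to 93.9% in CsA_US and 89.8% to 93.2% in ethanol_US. The shorter Neurl3-202 was at 99.4 and 101 TPM in CsA_PI 1 and 3, against 3.93 to 6.25 TPM in ethanol_PI, so both transcripts were lower in ethanol_PI. Hsf2bp-201 had 56.5 and 56.6 estimated counts in CsA_PI 1 and 3 and 0 to 5.21 in ethanol_PI, and Hsf2bp-202 had 36.3 and 28.8 in CsA_PI 1 and 3 and 3.70 to 6.79 in ethanol_PI. Hsf2bp-203, annotated as a processed transcript, had 12.3 and 6.76 counts in CsA_PI 1 and 3 and at most 1 in ethanol_PI. Sequence shared with other genes was limited: 202 of the 1692 stretches of 31 bases in Mmp10 also occur in Mmp3, which had no count in any library. For Neurl3-201 the number was 92 of 2568 and for Hsf2bp-201 28 of 2837, and the other transcripts shared none. The stretches were counted in GENCODE sequences, in which Hsf2bp-202 has 1479 bases, against 821 in the sequence quantified.

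Across the 11 libraries, log2(CPM + 1) of Mmp10 and Hsf2bp had a Pearson correlation of 0.93, Neurl3 and Hsf2bp 0.61, and Mmp10 and Neurl3 0.40. These values are descriptions of libraries in which all 3 genes were chosen to be high together, and the lower values with Neurl3 go with its different order among the other groups. The genes whose pattern was most like that of Mmp10 were Trav6-5, a T cell receptor alpha variable segment (0.99), Tbc1d1, a Rab GTPase-activating protein (0.98), Ythdc1, a reader of methylated RNA (0.97), Smox, spermine oxidase (0.97), and Fdft1, squalene synthase (0.97). A correlation takes no account of the size of a change. Trav6-5 averaged only 6.54 CPM in CsA_PI, against 4.50 CPM in ethanol_PI, 3.57 CPM in CsA_US and 3.60 CPM in ethanol_US. Ythdc1 averaged 211 CPM, against 163, 128 and 129 CPM in the same order. Smox had 648 and 744 CPM in CsA_PI 1 and 3, against 173 to 196 CPM in ethanol_PI, 56.1 to 64.0 CPM in CsA_US and 53.5 to 56.1 CPM in ethanol_US, with 57.6 CPM in CsA_PI 2.

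Genes most like Neurl3 were the actin-binding Cnn2 (0.99), the RNA helicase Mov10 (0.98), the transcription factor Gtf2i (0.98), the adhesion regulator Cytip (0.98) and Tgfbr2 (0.97), a receptor chain for TGF-beta. They shared its low level in stimulated vehicle cells. Gtf2i had 995 and 863 CPM in CsA_PI 1 and 3, against 96.6 to 113 CPM in ethanol_PI, 366 to 454 CPM in CsA_US and 362 to 420 CPM in ethanol_US. Tgfbr2 averaged 731 CPM in CsA_PI, against 107 CPM in ethanol_PI, 301 CPM in CsA_US and 298 CPM in ethanol_US. Among the genes most like Hsf2bp were Mxd1, a partner of Max that opposes Myc (0.98), the decoy receptor Tnfrsf23 (0.97), the kinesin Kif3b (0.97) and the polyadenylation factor Cpsf7 (0.97). Mxd1 had 527 and 827 CPM in CsA_PI 1 and 3, against 73.9 to 103 CPM in ethanol_PI, 80.4 to 94.8 CPM in CsA_US and 86.6 to 113 CPM in ethanol_US, with 121 CPM in CsA_PI 2. The change in Cpsf7 was much smaller, with a mean of 91.0 CPM in CsA_PI, against 73.3 CPM in ethanol_PI, 72.7 CPM in CsA_US and 72.9 CPM in ethanol_US. Likeness was taken over the same 11 libraries for each gene, which share their depth and scaling, and it says nothing of shared function.

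Mmp10 lies in a cluster of metalloproteinase genes on chromosome 9, and the same direction was seen in 2 others of that cluster. Mmp12, macrophage elastase, whose gene lies 132.853 kb before Mmp10 on mm10, had 17.8 and 30.4 CPM in CsA_PI 1 and 3, against 2.83, 6.88 and 5.39 CPM in ethanol_PI, 2.98, 1.91 and 2.10 CPM in CsA_US and 4.22, 3.90 and 2.62 CPM in ethanol_US. CsA raised it in stimulated cells (log2 fold change 2.25 ± 0.38, SE; edgeR adjusted p = 0.000929), whereas stimulation in vehicle gave 0.49 ± 0.36 (edgeR adjusted p = 0.294). Mmp13, collagenase 3, whose gene lies 219.021 kb before Mmp10, had 13.5 and 18.3 CPM in CsA_PI 1 and 3, against 2.60, 4.17 and 5.76 CPM in ethanol_PI, and at most 0.283 CPM in any unstimulated library. CsA raised it in stimulated cells by 1.93 ± 0.53 (edgeR adjusted p = 0.0191). In CsA_PI 2 Mmp12 was at 2.88 CPM and Mmp13 at 0.137 CPM, and with that library kept both calls were lost (1.74 with edgeR adjusted p = 0.0664 and 1.34 with edgeR adjusted p = 0.405). The Mmp13 call was also lost without ethanol_PI replicate 1 (edgeR adjusted p = 0.0713), ethanol_PI replicate 2 (0.0524), CsA_PI replicate 1 (0.0639) or CsA_PI replicate 3 (0.148). Mmp3, the neighbour 46.377 kb before Mmp10, and Mmp1a and Mmp1b had no count in any library, and Mmp8, 48.216 kb after it, was tested and not called.

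**Figure D3:**
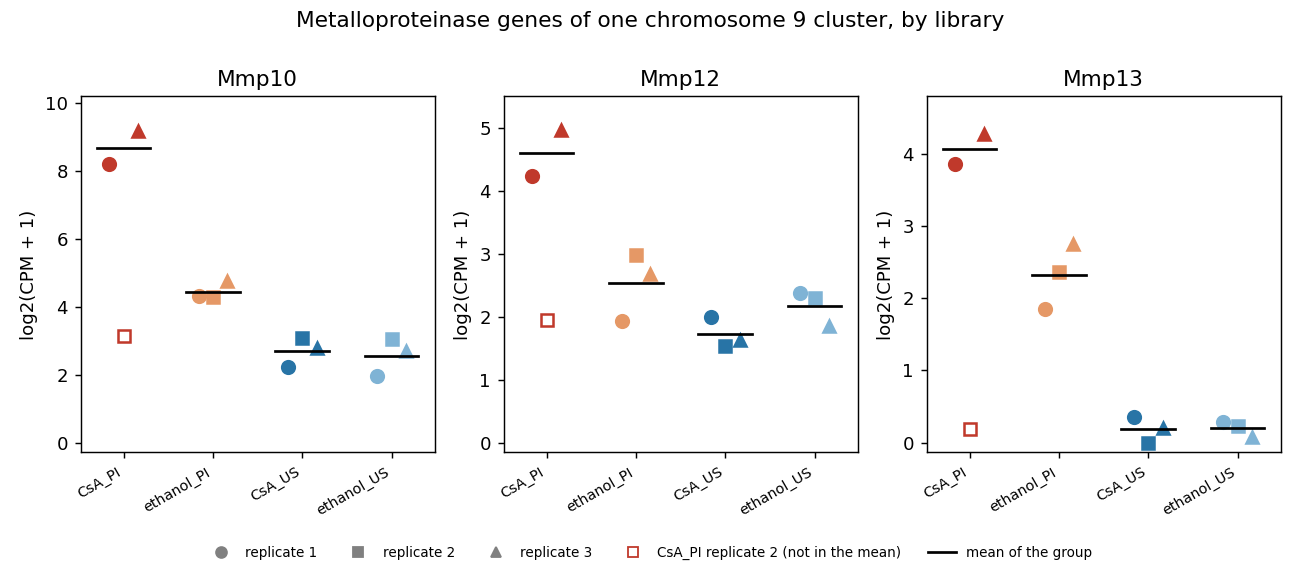
Level as log2(CPM + 1) of Mmp10, Mmp12 and Mmp13, which lie in one cluster on chromosome 9, in the libraries of CsA_PI, ethanol_PI, CsA_US and ethanol_US, with bars for group means without CsA_PI replicate 2 (open square). CsA_PI 1 and 3 are the highest libraries in each panel, and for Mmp13 all unstimulated libraries and CsA_PI 2 lie near 0.

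Among the 22 other matrix metalloproteinase genes listed, 10 passed the filter, and CsA in stimulated cells raised the 2 just described and lowered none, where 9.66% of all genes tested were called higher and 12.9% lower. Their median log2 fold change was -0.58, against 0.01 over all genes, and 8 of the 10 were not called. Mmp8, Mmp9 and Mmp19 were highest in replicate 2 of every other group, and CsA_PI had no replicate 2 in the fit. Mmp19, for example, had 12.8 CPM in ethanol_PI 2, against 1.18 and 0.245 CPM in ethanol_PI 1 and 3. The negative values of these genes, which enter the median, cannot be told apart from a difference between replicate numbers. Stimulation in vehicle raised Mmp13 (4.68 ± 0.64; edgeR adjusted p = 5.36e-05) and Mmp14 and lowered Mmp15 (-5.03 ± 1.06; edgeR adjusted p = 0.00168) and Mmp11; Mmp14 and Mmp11 are named after their values were seen. Mmp15 had 0, 0.0969 and 0 CPM in ethanol_PI, against 1.86, 1.42 and 1.17 CPM in ethanol_US. The size of its fall thus rests on values below the floor. The median in vehicle was 0.13, against -0.03 over all genes, and turned to -0.43 with library totals. Of 13 genes for inhibitors and activators of these enzymes, 9 were tested. CsA in stimulated cells lowered 2 of them, Plaur, the urokinase receptor (-3.32 ± 0.38; edgeR adjusted p = 9.4e-05), and Furin, a protease that activates several pro-enzymes (-2.16 ± 0.25; edgeR adjusted p = 5.49e-05), and raised none. In vehicle the stimulus raised 5 of the 9 and lowered none, where 22.2% of all genes were called higher and 21.9% lower, and with library totals it raised 4 and lowered 1. Among the 5 were Plaur at 5.14 ± 0.35 (edgeR adjusted p = 4.89e-07) and the plasminogen activator Plau at 4.78 ± 1.51 (edgeR adjusted p = 0.0231). The Plau call was lost with no low-count filter (4.65, edgeR adjusted p = 0.103) and without ethanol_US replicate 1 (4.16, edgeR adjusted p = 0.0734), ethanol_US replicate 3 (4.18, 0.0744) or ethanol_PI replicate 2 (2.03, 0.313). The list's median was -0.96 for CsA in stimulated cells and 1.46 for stimulation in vehicle.

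For Neurl3 the listed relatives were other Neuralized and Mind bomb ligases and the Notch pathway, 31 of 36 tested. CsA in stimulated cells raised 3 and lowered 6, where 9.66% of all genes tested were called higher and 12.9% lower, and with library totals it raised 4 and lowered 4. The median log2 fold change was -0.17 against 0.01 over all genes and turned to 0.04 with library totals. The larger changes were falls, in Adam10, a protease that cleaves Notch (-2.07 ± 0.24; edgeR adjusted p = 5.23e-05), Notch1 (-1.58 ± 0.24; edgeR adjusted p = 0.00043), the coactivator Maml2 (-1.53 ± 0.28; edgeR adjusted p = 0.00133) and Mfng, a Fringe sugar transferase (-1.50 ± 0.14; edgeR adjusted p = 7.39e-06). The Mfng call was lost with CsA_PI 2 kept (-0.69, edgeR adjusted p = 0.206). Neurl4 and Neurl1b, the other Neuralized genes tested, were not called for CsA in stimulated cells, at 0.51 ± 0.30 and -0.67 ± 0.96. In vehicle the stimulus raised 4 and lowered 8 of the 31, where 22.2% of all genes were called higher and 21.9% lower, and with library totals it raised 2 and lowered 16. Among those called were Notch1 at 2.96 ± 0.22 (edgeR adjusted p = 2.81e-07), opposite to Neurl3, and the ligase Mib2 at -1.75 ± 0.21 (edgeR adjusted p = 1.63e-05), the same way as Neurl3. The median in vehicle was -0.33, against -0.03 over all genes, and -0.92 with library totals.

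For Hsf2bp the listed genes were its recombination partners, of which 15 of 22 were tested, and the heat shock factors with their targets, 15 of 16. Among recombination genes CsA in stimulated cells raised 2, Fanci of the Fanconi anaemia pathway (3.55 ± 0.42; edgeR adjusted p = 7.74e-05) and Rad51c, a recombination protein (3.22 ± 0.75; edgeR adjusted p = 0.00736), and lowered 1, the single-strand binding subunit Rpa2 (-0.97 ± 0.18; edgeR adjusted p = 0.00163). These are 2 and 1 of 15, beside 9.66% of all genes called higher and 12.9% lower. Fanci had 22.2 and 30.8 CPM in CsA_PI 1 and 3, against 1.65, 4.07 and 0.857 CPM in ethanol_PI, 19.0 to 27.5 CPM in CsA_US and 28.3 to 35.6 CPM in ethanol_US. Its CsA_PI levels thus lay near those of unstimulated cells, unlike Hsf2bp, which was higher in CsA_PI than in CsA_US. Rad51c had 3.88 and 2.64 CPM in CsA_PI 1 and 3, against 0, 0.194 and 0.857 CPM in ethanol_PI, partly below the floor. Its unstimulated libraries had 1.48 to 2.43 CPM, and its CsA_PI level was not called different from CsA_US (0.91, edgeR adjusted p = 0.334). The Rad51c call was lost without CsA_PI replicate 1 (2.92, edgeR adjusted p = 0.0579) and the Rpa2 call with CsA_PI 2 kept (-0.59, edgeR adjusted p = 0.112). Brca2, which Hsf2bp binds in mice, was not called, at 0.80 ± 0.36 (edgeR adjusted p = 0.133), and the meiotic genes Dmc1, Mnd1, Spata22, Meiob, Sycp1, Sycp2 and Sycp3 were below the filter, at no more than 0.396 CPM in any library. The stimulus alone raised none of the 15 and lowered 7, among them Fanci (-3.84 ± 0.40; edgeR adjusted p = 7.86e-06) and Rpa1 (-2.77 ± 0.21; edgeR adjusted p = 2.57e-07). Over all genes 22.2% were called higher and 21.9% lower in vehicle, and with library totals 11 of the 15 were called lower. The median was 0.30 for CsA in stimulated cells and -1.19 for stimulation in vehicle.

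Of the heat shock genes, CsA in stimulated cells lowered 7 of the 15 and raised none, with a median of -0.78, where 12.9% of all genes were called lower and 9.66% higher. The other 8 were not called and lay on both sides of 0, with Hspa1b, an inducible chaperone whose reads may be split with its near-identical copy Hspa1a, highest at 1.09 ± 0.48 (edgeR adjusted p = 0.128; named after its value was seen). The mitochondrial chaperonin Hspd1 had 245 and 261 CPM in CsA_PI 1 and 3, against 909, 802 and 846 CPM in ethanol_PI (-1.75 ± 0.18; edgeR adjusted p = 2.16e-05). Hsph1, Hspe1 and Hsf1, the main heat shock factor, were at -1.39 ± 0.26, -1.17 ± 0.25 and -0.93 ± 0.17, and the Hspe1 call was lost without CsA_PI replicate 3 (-0.90, edgeR adjusted p = 0.0835). Hsf2, the factor that Hsf2bp is named for, was not called for CsA in stimulated cells (0.63 ± 0.32; edgeR adjusted p = 0.189). The stimulus alone raised 8 and lowered 1, where 22.2% of all genes were called higher and 21.9% lower. The median of 0.64 dropped to 0.033 with library totals, with 6 called higher and 2 lower. Under TMM Hspd1 and Hsp90aa1 rose by 2.58 ± 0.16 and 2.15 ± 0.15.

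Of the AP-1 and Ets factors, 15 of 16 were tested. Stimulation in vehicle raised 11 of them and lowered 2, with a median of 1.52, where 22.2% of all genes were called higher and 21.9% lower. The largest rises named were those of Fosl1 (6.18 ± 0.47; edgeR adjusted p = 9.22e-07) and Atf3 (4.62 ± 0.35; edgeR adjusted p = 1.11e-06). CsA in stimulated cells lowered 4 and raised 2, with a median of -0.55, where 12.9% of all genes were called lower and 9.66% higher. With library totals it lowered 2 and raised 2. Lower were Mafk (-1.61 ± 0.25; edgeR adjusted p = 0.000513) and Atf3 (-1.29 ± 0.35; edgeR adjusted p = 0.0205) beside Ets2 and Fosl2, which are named after their values were seen. Higher were Fli1 (1.36 ± 0.18; edgeR adjusted p = 0.000149) and Ets1 (1.15 ± 0.30; edgeR adjusted p = 0.0156), the 2 that stimulation in vehicle lowered. Fosl1 itself had 44.3 and 45.3 CPM in CsA_PI 1 and 3, against 72.0, 76.4 and 68.7 CPM in ethanol_PI and at most 2.65 CPM in unstimulated libraries, without a call for CsA (-0.69 ± 0.40; edgeR adjusted p = 0.27). The Atf3 call was lost with CsA_PI 2 kept (-1.79, edgeR adjusted p = 0.0598), with no low-count filter (-1.25, 0.0943) and without ethanol_PI replicate 1 (-1.09, 0.0604), CsA_PI replicate 1 (-1.47, 0.0798) or CsA_PI replicate 3 (-1.10, 0.176). The Ets1 call was lost without ethanol_PI replicate 1 (1.13, 0.0516), ethanol_PI replicate 2 (1.03, 0.0579) or CsA_PI replicate 3 (0.90, 0.136). In unstimulated cells CsA gave no call in any of the 6 lists.

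All 6 nearest protein-coding neighbours of Neurl3 were tested, and 4 of those of Hsf2bp. CsA in stimulated cells gave no call for Hs6st1 (-0.49 ± 0.37; edgeR adjusted p = 0.407), Plekhb2 (-0.20 ± 0.19; 0.511), Kansl3 (-0.020 ± 0.14; 0.950) and Fer1l5 (-2.35 ± 1.34; 0.249) beside Neurl3, or for Ephx3 beside Hsf2bp (0.70 ± 1.03; edgeR adjusted p = 0.701). Arid5a, an RNA-binding regulator of inflammatory transcripts whose gene lies 33.054 kb after Neurl3 in mm10 coordinates, had 349.9 and 440.2 CPM in CsA_PI 1 and 3, against 167, 184 and 183 CPM in ethanol_PI, 307 to 406 CPM in CsA_US and 323 to 362 CPM in ethanol_US. Like Neurl3 it fell with stimulation in vehicle (-0.93 ± 0.14; edgeR adjusted p = 0.000162) and was raised by CsA in stimulated cells (1.15 ± 0.16; edgeR adjusted p = 0.000171), but its CsA_PI level was not called different from CsA_US (0.19 ± 0.16; edgeR adjusted p = 0.415). Uggt1, on the other side of Neurl3, was raised by CsA in stimulated cells by 0.48 ± 0.15 (edgeR adjusted p = 0.0382), a call lost with no low-count filter (edgeR adjusted p = 0.0537) and without ethanol_PI replicate 1, ethanol_PI replicate 2 or CsA_PI replicate 3 (0.116, 0.111 and 0.357). Sik1, a kinase gene 88.965 kb before Hsf2bp, was raised by CsA in stimulated cells by 1.17 ± 0.32 (edgeR adjusted p = 0.0229). That call was lost with CsA_PI 2 kept (0.78, edgeR adjusted p = 0.222), with no low-count filter (1.21, 0.0591) and without ethanol_PI replicate 2, ethanol_PI replicate 3, CsA_PI replicate 1 or CsA_PI replicate 3 (edgeR adjusted p = 0.0735, 0.0681, 0.17 and 0.0524).

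Rrp1b, a nucleolar protein gene, overlaps the Hsf2bp gene model on the opposite strand. It had 59.7 and 76.0 CPM in CsA_PI 1 and 3, against 186, 223 and 222 CPM in ethanol_PI, 7.32 to 9.14 CPM in CsA_US and 6.42 to 11.1 CPM in ethanol_US. Stimulation in vehicle raised it by 4.69 ± 0.22 (edgeR adjusted p = 1.02e-08) and CsA in stimulated cells lowered it by 1.63 on the log2 scale (edgeR adjusted p = 0.000189), an order of groups unlike that of Hsf2bp. By their GENCODE coordinates on mm10, the 3 Hsf2bp transcripts end at or before 32034537, short of the overlap, which begins at 32036100. Since the reads keep no strand, reads in an overlap could not be assigned by strand. As annotated in GENCODE, none of the 3 transcripts reaches the overlap, and none of their stretches of 31 bases occurs in a transcript of Rrp1b. Hsf2bp-202 was quantified with a length of 821 bases, against 1479 as annotated. For that transcript neither point is known for the sequence that was quantified. U2af1, farther from Hsf2bp, was lowered by CsA in stimulated cells (-0.64 ± 0.19; edgeR adjusted p = 0.0252), a call lost with library totals (-0.43, edgeR adjusted p = 0.121) and without ethanol_PI replicate 1, CsA_PI replicate 1 or CsA_PI replicate 3 (0.0862, 0.0631 and 0.231).

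**Figure D4:**
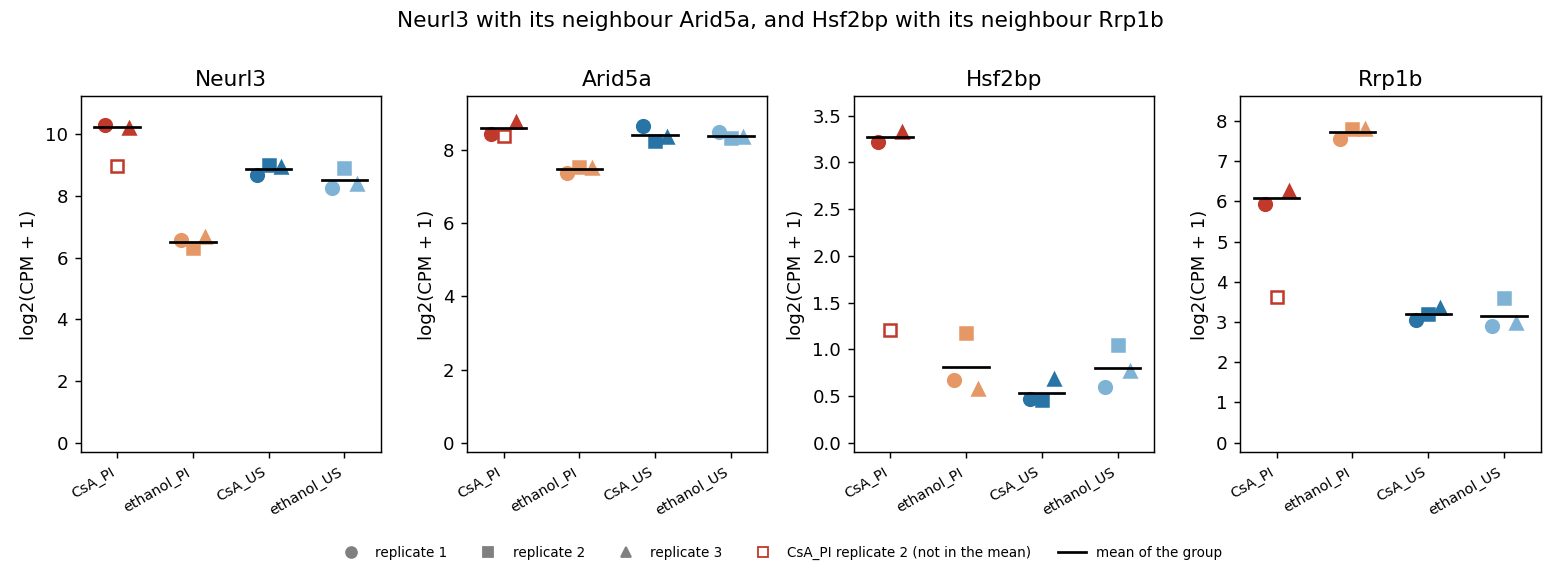
Level as log2(CPM + 1) of Neurl3 beside its neighbour Arid5a, and of Hsf2bp beside its neighbour Rrp1b, in the libraries of CsA_PI, ethanol_PI, CsA_US and ethanol_US, with bars for group means without CsA_PI replicate 2 (open square). Neurl3 and Arid5a are both lowest in ethanol_PI, whereas Rrp1b is highest there and Hsf2bp is high only in CsA_PI 1 and 3 among the 12 libraries.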

How the data were processed

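RNA was measured in 12 libraries, 3 in each of 4 groups. The submitters' processing notes name cutadapt, kallisto and mm10; versions and the transcript annotation are not given in the sources used here. Per the file headers, the deposited tables hold the authors' estimated count and TPM of each transcript. Both were added up per gene, with 108214 of 109617 transcripts matched by identifier to GENCODE on mm10; the unmatched carried 0.494% to 0.629% of a library's counts and were left out.

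Rounded gene counts were tested with edgeR 4.0.16 in R 4.3.3: TMM scaling, filterByExpr by group (count 10 and total 15 as minimums), robust quasi-likelihood tests and Benjamini-Hochberg adjustment over 15018 genes, called at adjusted p below 0.05. One fit held 4 groups and 11 libraries, without CsA_PI replicate 2, and was tested on simulated data. SE was derived from the fold change and its F value. CPM used TMM factors over 12 libraries.

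Named genes were the 3 members, the 5 genes with the highest Pearson correlation of log2(CPM + 1) to each (mean of at least 1 CPM), up to 4 genes per list called for CsA in stimulated cells and up to 2 for stimulation in vehicle by size of change, 3 protein-coding neighbours on either side, and Il2 and Nfatc1; 1 of the genes this rule names is not reported here. The members and lists were chosen with earlier results of these data known. Nfatc1 was called lower for CsA in stimulated cells (-2.32, edgeR adjusted p = 2.25e-06). Of the marker lists not given with the results, CD8 and NK markers summed to 27.8 to 50.3 CPM and erythroid and platelet markers to 21.4 to 107 CPM over the 12 libraries. T cell markers, given with the results, summed to 2258 to 4684 CPM.

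Equally numbered libraries were examined as pairs by correlating deviations from group means across genes. The correlations were 0.203 to 0.415 between ethanol_PI and ethanol_US and 0.271 to 0.414 between CsA_US and ethanol_US. Equally numbered libraries of these groups thus tended to deviate alike. No values for unequally numbered libraries are given for comparison, and the labels do not say what the numbers share. With 2 pairs, they were 0.166 between CsA_PI and ethanol_PI and 0.0244 between CsA_PI and CsA_US. Alternatives were CsA_PI replicate 2 kept, RLE scaling, library totals, no filter, DESeq2 1.42.0, a replicate block, only the 2 groups compared, and each library left out. Reads had no molecular identifiers, so floors of 3 counts cover counting error only. Promoter sequences are RefSeq's, and overlap between transcripts was counted in stretches of 31 bases.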

Additional observations from a re-analysis of the deposited data

Results flagged for a closer look

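Neurl3 was lower after stimulation in every vehicle library and higher in both CsA_PI 1 and 3 than in every CsA_US library, so the stimulation effects ran in opposite directions and differed by 3.40 on the log2 scale. That difference was not tested, because the gene was chosen on it.

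CsA_PI replicate 2, left out of the comparisons, still held Neurl3 at 499.7 CPM and Hsf2bp at 1.30 CPM, each above every vehicle library. For Hsf2bp that is 19 counts, against 13 counts and 1.26 CPM in ethanol_PI 2, a difference that such counts cannot resolve. Neurl3 lay within the CsA_US range of 411 to 514 CPM. Over the genes induced in vehicle, this library was near the unstimulated ones.

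For 19 other named genes the stimulation effect differed between CsA-treated and vehicle cells in the test of that difference (edgeR, adjusted p below 0.05, as for 12.9% of all genes tested). Apart from the neighbours Arid5a and Rrp1b, they were named because they were called for CsA in stimulated cells or for stimulation in vehicle. Both comparisons are part of this difference, so many of the calls follow from the naming. The share over all genes is therefore no fair measure for them. The effect with CsA minus that in vehicle, on the log2 scale, was positive for Fanci (4.04), Rad51c (3.46), Mmp12 (2.86), Fli1 (1.61), Ets1 (1.46) and Arid5a (1.12). It was negative for Plaur (-3.33), Furin (-2.52), Hspd1 (-1.74), Mfng (-1.69), Rrp1b (-1.65), Adam10 (-1.61), Hspe1 (-1.55), Notch1 (-1.48), Hsph1 (-1.32), Mafk (-1.30), Maml2 (-1.24), Hsp90aa1 (-0.97) and Rpa2 (-0.92). The adjusted p values ran from 7.97e-05 for Mfng to 0.0361 for Maml2. None turned its sign under the alternatives run, and Fanci, Arid5a, Fli1, Plaur, Furin and Hspd1 stayed called under each of them. With CsA_PI 2 kept, 12 of the 19 stayed called, and the calls of Mfng, Hsp90aa1, Rpa2, Maml2, Mmp12, Adam10 and Rrp1b were lost (edgeR adjusted p from 0.0540 to 0.380). With library totals 16 stayed called, without Rpa2, Hsph1 and Maml2 (edgeR adjusted p from 0.0635 to 0.105). Without CsA_PI 1 calls were lost for Rad51c (0.119), Mafk (0.0982), Notch1 (0.0535), Rpa2 (0.0871), Hsph1 (0.105) and Maml2 (0.115), and without CsA_PI 3 for Rad51c (0.0651), Mafk (0.0662), Hsp90aa1 (0.0678), Rpa2 (0.0747), Maml2 (0.13), Ets1 (0.164) and Hspe1 (0.0651). Without ethanol_PI 1 calls were lost for Rpa2 (0.0530), Maml2 (0.0605) and Ets1 (0.0773), without ethanol_PI 2 for Rad51c (0.0734) and Ets1 (0.0770), and without ethanol_PI 3 for Hsph1 (0.0567) and Maml2 (0.0856). Without CsA_US 1 calls were lost for Maml2 (0.0680), without CsA_US 2 for Rad51c (0.0584), and without CsA_US 3 for Rad51c (0.0559), Rpa2 (0.0709), Hsph1 (0.0614) and Maml2 (0.0957). Without ethanol_US 1 calls were lost for Rpa2 (0.0685), Hsph1 (0.0599), Maml2 (0.0572) and Ets1 (0.0716), without ethanol_US 2 for Rad51c (0.0508), and without ethanol_US 3 for Rad51c (0.0501) and Ets1 (0.0658). The values in these parentheses are edgeR adjusted p.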

How the results depend on the processing

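Neurl3 stayed called lower for stimulation in vehicle under all 18 alternatives and Mmp10 called higher under 17; Hsf2bp was called under none. With CsA_PI replicate 2 kept, Mmp10 in vehicle was 2.03 and no longer called, CsA_PI over ethanol_PI was 3.78 for Mmp10, 3.42 for Neurl3 and 2.95 for Hsf2bp, CsA_PI over CsA_US was 1.05 for Neurl3 and 3.78 for Hsf2bp, and 760 genes in place of 4369 were called for stimulation with CsA. Genes called for CsA in unstimulated cells numbered 9 and became 1 with that library kept, 32 with no filter, 49 by DESeq2 and 1 with only the 2 groups compared. Hsf2bp in vehicle, never called, turned to -0.51 with library totals and -0.050 with no filter. Library totals also gave Neurl3 3.95 for CsA_PI over ethanol_PI and 0.99 for CsA_PI over CsA_US, and Hsf2bp 3.89 for CsA_PI over CsA_US. The fit with the replicate block put Hsf2bp at 4.44 for CsA_PI over CsA_US and changed no call among the gene results recomputed under it, the 19 differences of stimulation effects included. Of the values for other genes and lists, 1378 kept their direction and their side of the threshold, 84 lost a call and 30 list counts moved by more than 1.5 times. Leaving out each library in turn, genes called ranged from 5827 to 6711 for stimulation in vehicle, 4 to 12 for CsA in unstimulated cells, 2026 to 3633 for CsA in stimulated cells, 2742 to 4553 for stimulation with CsA and 1094 to 1927 for the difference of stimulation effects, the lowest of the last 3 ranges being without CsA_PI replicate 1 or 3. Mmp10 ranged from 1.67 to 2.29 in vehicle, -0.19 to 0.42 for CsA in unstimulated cells, 3.82 to 4.77 for CsA_PI over ethanol_PI and 5.65 to 6.68 for CsA_PI over CsA_US. Hsf2bp ranged from -0.47 to 0.35 in vehicle, 3.19 to 3.97 for CsA_PI over ethanol_PI and 4.11 to 4.49 for CsA_PI over CsA_US. The cause of these changes was not tested. Depth limits Hsf2bp most, at 4 to 18 counts a library outside CsA_PI.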
